A study of Homo sapiens with 16 samples.

Results

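Cytosolic ribosomal protein genes encode the proteins of the ribosomes that translate messenger RNA in the cytoplasm. They were followed here in tumours of BT474 cells, an established line from a human breast cancer whose ERBB2 (HER2) gene is amplified, grown in mice with or without knockdown of SHP2, the tyrosine phosphatase encoded by PTPN11. Members were chosen by symbol. They are RPL or RPS followed by digits and at most 1 final A, X or L, together with RPLP0, RPLP1, RPLP2 and RPSA, without pseudogenes and RPS6 kinases. Of 81 protein-coding genes of RefSeq with such a symbol, 60 had an array feature (transcript cluster) annotated to that gene alone, and they are 60 of the 18377 genes measured this way. They comprise 38 proteins of the large subunit, stalk included, and 22 of the small subunit. Of the 21 not measured, 11 (RPL6, RPL9, RPL13A, RPL21, RPL36A, RPL37, RPL39, RPS10, RPS12, RPS18 and RPS26) had only clusters shared with other genes. The other 10 were not analysed here.

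BT474 cells were transduced with a doxycycline-inducible lentiviral vector for a microRNA hairpin and injected into the mammary fat pad of immunodeficient mice. The hairpin was SHP2 miR1 in 7 tumours, SHP2 miR2 in 3 and a control hairpin, CTRL miR, in 6. Once tumours had grown, all 3 groups of mice received doxycycline in their water (2 g per L) during 30 days, so the control tumours also carried an induced hairpin. RNA of each tumour was read on 1 human gene array (HuGene-1_0-st-v1), and values are log2 signals. All tumours come from 1 cell line, the strain, sex and age of the mice are not stated in the labels, and mouse stroma and blood cells in a tumour add RNA that a human array can partly bind. The labels do not tie tumours to animals, and p-values measure only the spread between these tumours.

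A ribosome holds 1 copy of nearly every ribosomal protein, and its large and small subunits are assembled in the nucleolus on ribosomal RNA. Most mammalian messenger RNAs for these proteins begin with a C followed by a run of pyrimidines, the terminal oligopyrimidine (TOP) motif, through which mTORC1, a kinase downstream of growth factor receptors, controls their translation. A few members are paralogues that replace a standard protein in certain tissues, such as RPL3L in muscle and RPL10L in testis.

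Several sets of tumours stood apart before any comparison. PTPN11, the targeted gene, lay between 6.59 and 7.18 in SHP2 miR1 tumours and between 6.34 and 6.53 in SHP2 miR2 tumours, against 8.23 to 8.61 in CTRL miR tumours, so no library went against its label. IRS4, an adaptor of insulin receptor signalling, divided the controls. It ran from 2.97 to 3.91 over the 10 knockdown tumours. Control tumours 2 and 5 had 3.16 and 3.77, whereas the other 4 controls (tumours 1, 3, 4 and 6) ran from 7.14 to 8.29. The levels of small noncoding RNAs divided the arrays into a set A (SHP2 miR1 tumours 1 to 4 and control tumours 1 to 3) and a set B (all others), which the labels do not mention. SHP2 miR2 tumours 1 and 3 had a compressed upper range, with a 95th percentile of the array of 8.56 and 8.57, against 8.71 to 8.90 on the other arrays. Most ribosomal protein genes lie in that upper range, so the counts are also given without these tumours. The same holds for the changes of members described singly as fallen with SHP2 miR2, but not of every member named.

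To show the TOP motif that links the members, the 60 bases around the transcription start are printed for 5 members that fell with SHP2 miR2 against either set of controls, 3 members that did not pass the test with it, and 2 tissue-restricted or stress-linked paralogues. Each runs from 40 bases before the start to 20 bases after it, from RefSeq on GRCh38.p14, and capitals mark the longest unbroken run of C and T within 20 bases of the start.
RPS24: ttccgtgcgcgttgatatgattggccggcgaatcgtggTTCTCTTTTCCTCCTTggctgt
RPS23: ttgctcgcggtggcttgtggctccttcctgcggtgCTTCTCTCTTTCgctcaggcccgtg
RPL29: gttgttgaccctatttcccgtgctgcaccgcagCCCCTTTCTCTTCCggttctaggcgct
RPL35: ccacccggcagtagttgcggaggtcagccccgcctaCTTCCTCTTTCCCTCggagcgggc
RPL12: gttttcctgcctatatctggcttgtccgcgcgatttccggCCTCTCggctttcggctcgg
RPS3: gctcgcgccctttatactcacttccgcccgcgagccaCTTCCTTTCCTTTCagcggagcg
RPL19: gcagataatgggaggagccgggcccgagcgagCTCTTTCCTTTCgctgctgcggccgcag
RPL41: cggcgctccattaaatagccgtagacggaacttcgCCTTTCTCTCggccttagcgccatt
RPS27L: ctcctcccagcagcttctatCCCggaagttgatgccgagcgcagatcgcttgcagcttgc
RPL10L: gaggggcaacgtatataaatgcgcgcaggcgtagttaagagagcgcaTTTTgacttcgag
The stretches on the plus strand are chr10:78033823-78033882 (RPS24), chr11:75399478-75399537 (RPS3), chr17:39200283-39200342 (RPL19) and chr12:56116593-56116652 (RPL41). Those on the minus strand are chr5:82278335-82278394 (RPS23), chr3:51995876-51995935 (RPL29), chr9:124861938-124861997 (RPL35), chr9:127451387-127451446 (RPL12), chr15:63157458-63157517 (RPS27L) and chr14:46651762-46651821 (RPL10L). In each the last 20 bases belong to the first exon, and RPL19 has 2 annotated starts, of which 1 is shown. The run was 16 bases long at RPS24, 12 at RPL19 and 14 at RPS3, and 6 at RPL12, which fell. RPS27L and RPL10L had runs of 3 and 4 bases. The run at RPL12 begins at the start, that at RPS27L lies before the start and that at RPL10L after it.

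Of the 60 members, 49 had a promoter sequence in the table (250 bases before to 50 after the start). A run of at least 8 pyrimidines on the sense strand within 20 bases of the start was present in 42 of the 49 (85.7%), against 20.9% of all 27305 genes in the table. The median of the longest run was 11 bases in the members and 5 bases over all genes. The letters CTTTCC, which can lie within such a run, were found on the sense strand in that window in 30.6% of members and 2.56% of all genes. CCGGAAG, the core letters bound by ETS factors, was found on either strand of the 300 bases in 38.8% of members and 12.2% of all genes. GCCATCTT, a YY1 motif, was found in 8.16% of members and 3.52% of all genes, and TATAAA in 10.2% of members and 14% of all genes. With SHP2 miR2 against CTRL miR, 18.2% of all genes fell (limma adjusted p below 0.05). Of the 42 members with the run 27 fell, with a median log2 difference of -0.52. Of the 7 without it 5 fell, with a median of -0.54. These matches are descriptions of the letters, not of binding, and members with and without the run are not members with and without a TOP motif.

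Ribosomal protein genes were lowest in SHP2 miR2 tumours. As a summary of each tumour, the median over the 60 members of the log2 signal minus that gene's mean over the 16 arrays was taken. It ran from -0.02 to 0.05 in SHP2 miR1 tumours, with a median of 0.02. It was -0.32, -0.28 and -0.42 in SHP2 miR2 tumours 1, 2 and 3. In CTRL miR tumours it was 0.20, 0.00, 0.25, 0.20, -0.06 and 0.31 for tumours 1 to 6. The SHP2 miR2 tumours therefore lay below all others. The SHP2 miR1 tumours lay close together, and control tumours 2 and 5 lay with them, while control tumours 1, 3, 4 and 6 lay higher. Over SHP2 miR1 tumours, the mean of this summary was 0.01 ± 0.03 in set A and 0.02 ± 0.02 in set B (SD, n = 4 and 3).

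**Figure D1:**
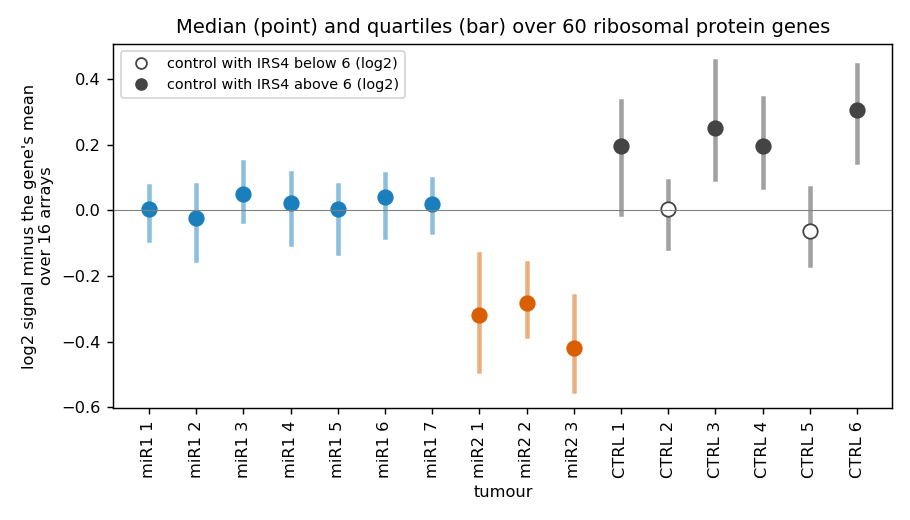
Median (point) and quartiles (bar) over the 60 ribosomal protein genes of log2 signal minus the gene's mean over 16 arrays, for each SHP2 miR1, SHP2 miR2 and CTRL miR tumour. The SHP2 miR2 points lie at -0.32, -0.28 and -0.42, and the open control points (tumours 2 and 5, with low IRS4) lie at 0.00 and -0.06, near the SHP2 miR1 points.

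With SHP2 miR2 against CTRL miR, 39 of 60 members fell (limma adjusted p below 0.05), where 18.2% of all genes fell. No member rose by this test, where 11.8% of all genes rose, and 1 member was higher at an unadjusted p below 0.05. Counts at an unadjusted p, here and below, have no share of all genes beside them, so no result is read from them. The median log2 difference over the members was -0.48, with a range of -1.34 to 0.36, against 0.02 over all genes. In 29 members every SHP2 miR2 tumour lay below every CTRL miR tumour, as in 11.2% of all genes. By subunit, and without 4 tissue-restricted or stress-linked paralogues (RPL3L, RPL10L, RPL39L and RPS27L), 14 of 21 small-subunit genes fell with a median of -0.61, and 23 of 35 large-subunit genes fell with a median of -0.43. Most members are bright, and the share of all genes was larger among brighter genes. In a fit without the dimmest genes 40 members fell, where 26.3% of the remaining genes fell.

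With SHP2 miR1 against CTRL miR, 2 of 60 members (3.33%) fell, RPS24 and RPS4X, near the 3.38% of all genes that fell. No member rose by limma, where 1.38% of all genes did. At an unadjusted p below 0.05, 15 were lower and none was higher, with no share of all genes to compare. The median log2 difference was -0.14, with 50 of 60 members below 0, against 0.02 over all genes. The SHP2 miR1 and CTRL miR tumours overlapped in all 60 members, where 0.555% of all genes had every SHP2 miR1 tumour below every control. Both members that fell with SHP2 miR1 also fell with SHP2 miR2, and these comparisons share their control tumours. The count rests on few control tumours. It was 0 without any 1 of control tumours 1, 3, 4 or 6, where 0.854% to 1.3% of all genes fell. It was 9 without control tumour 2 (6.62% of all genes) and 13 without control tumour 5 (7.17%). Without 1 of SHP2 miR1 tumours 1 to 5 or 7, or SHP2 miR2 tumour 1 or 3, it was 1 (2.03% to 2.92%). The member left was then RPS24, and RPS4X did not pass.

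With equal weight on both hairpins against CTRL miR, 28 members fell, where 13.1% of all genes fell. No member rose by limma, where 5.52% of all genes rose, and 1 was higher at an unadjusted p below 0.05. The median was -0.32, against 0.03 over all genes.

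The hairpins themselves differed. SHP2 miR1 tumours were above SHP2 miR2 tumours in 26 members, where 14.3% of all genes were, with a median difference of 0.35 over the members and -0.00 over all genes. No member was lower in SHP2 miR1 tumours by limma, where 8.22% of all genes were, and none was lower at an unadjusted p below 0.05. In 33 members every SHP2 miR1 tumour lay above every SHP2 miR2 tumour, as in 13.2% of all genes. The count of 26 was 15 without SHP2 miR2 tumour 1, where 6.62% of all genes were higher in SHP2 miR1 tumours, and 14 without SHP2 miR2 tumour 3 (5.05%). In the fit without the dimmest genes the count was 28, where 23.1% of the remaining genes were higher in SHP2 miR1 tumours. PTPN11 itself was 0.46 ± 0.12 (SE) higher in SHP2 miR1 than in SHP2 miR2 tumours, with a limma adjusted p of 0.0115.

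**Figure D2:**
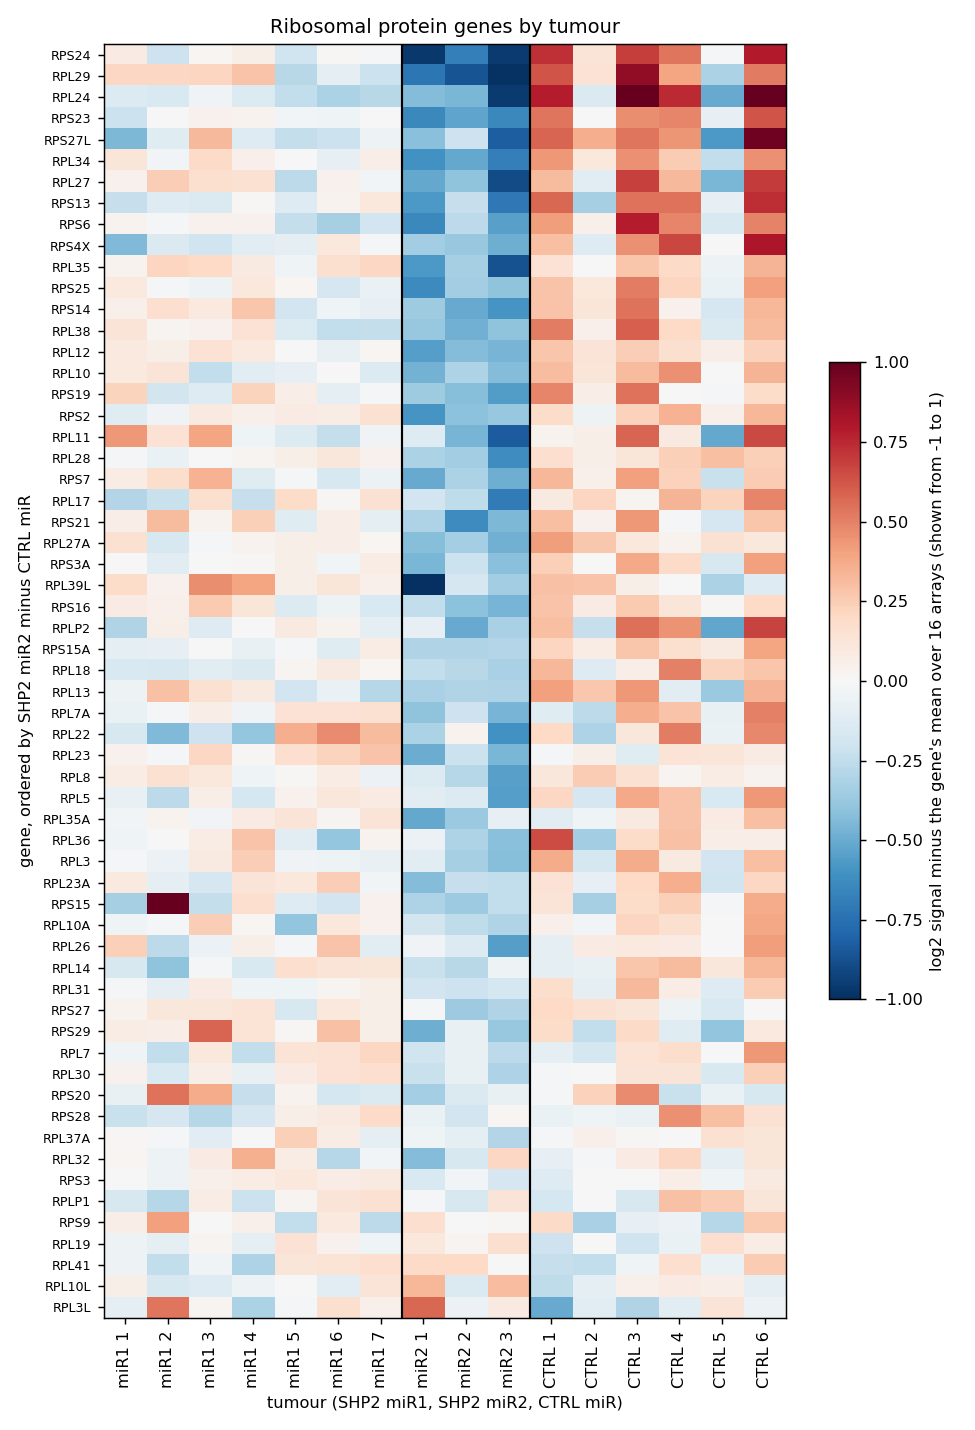
Log2 signal minus the gene's mean over 16 arrays (colour, from -1 to 1) for 60 ribosomal protein genes, ordered by the difference between SHP2 miR2 and CTRL miR, in each tumour. The 3 SHP2 miR2 columns are blue for most genes, control columns 1, 3, 4 and 6 are the reddest, and control columns 2 and 5 are pale, like the SHP2 miR1 columns.

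The control tumours differed among themselves for many members. In 31 of 60 members (51.7%), control tumours 1, 3, 4 and 6 all lay above control tumours 2 and 5, as in 19% of all genes. The reverse held in 0 members, but its share of all genes was not taken, so no result is read from it. The median gap between these control tumours was 0.28 over the members and -0.06 over all genes. Against control tumours 2 and 5 alone, 8 members fell with SHP2 miR2, where 2.98% of all genes did. They were RPS24 (-0.92), RPS23 (-0.57), RPL29 (-0.77), RPL27A (-0.63), RPL28 (-0.61), RPL12 (-0.58), RPL35 (-0.57) and RPL34 (-0.53). The members' median was then 0.04 with SHP2 miR1 and -0.29 with SHP2 miR2. With SHP2 miR1 no member passed limma in either direction, where 0.136% of all genes did, and 4 members were higher and 0 lower at an unadjusted p below 0.05. For both hairpins 0 members passed, where 0.751% of all genes did, with 10 lower and 1 higher at that level. With 2 control tumours the test has few replicates on that side.

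Counts were also taken on another scale and without SHP2 miR2 tumours 1 and 3. After quantile normalization, which gives every array the same distribution, 29 members fell with SHP2 miR2 (13.9% of all genes) and RPL19 and RPL3L rose (14% of all genes), with a median of -0.33. Between the hairpins 9 members were then higher in SHP2 miR1 tumours (8.31% of all genes) and RPL19 was lower (7.47%), with a median of 0.18. Without SHP2 miR2 tumours 1 and 3, which leaves 1 SHP2 miR2 tumour assumed to vary like the other groups, 5 members fell with SHP2 miR2 (0.963% of all genes). The members' median was -0.46, close to the -0.48 of all tumours. Between the hairpins 0 members passed limma in that fit (1.65% of all genes), 16 did so at an unadjusted p below 0.05, and the median was 0.26.

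The 5 members that fell with SHP2 miR2 in the fit without SHP2 miR2 tumours 1 and 3 were RPS24 (-1.16), RPL29 (-1.24), RPS23 (-0.86), RPL12 (-0.62) and RPL28 (-0.54). The other members described below as fallen with SHP2 miR2 did not pass in that fit. Among small-subunit genes the changes were then -0.73 for RPS4X and -0.61 for RPS6 (limma adjusted p 0.193 and 0.256). Among large-subunit genes they were -0.98 for RPL24, -0.62 for RPL11, -0.48 for RPL35, -0.30 for RPL5 and -0.25 for RPL23 (adjusted p 0.136 to 0.557). For the paralogue RPS27L the change was -0.59 (adjusted p 0.468).

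Within array set B, which holds all SHP2 miR2 tumours and 3 tumours of each other group, 32 members fell with SHP2 miR2 (9.98% of all genes), with a median of -0.50. With SHP2 miR1 no member passed limma within set A (0.0544% of all genes) or set B (0.00544%), with 12 and 9 members at an unadjusted p below 0.05 and medians of -0.12 and -0.13. With the set as a block, 39 members fell with SHP2 miR2 (16.4% of all genes) and 8 with SHP2 miR1 (3.99%).

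**Figure D3:**
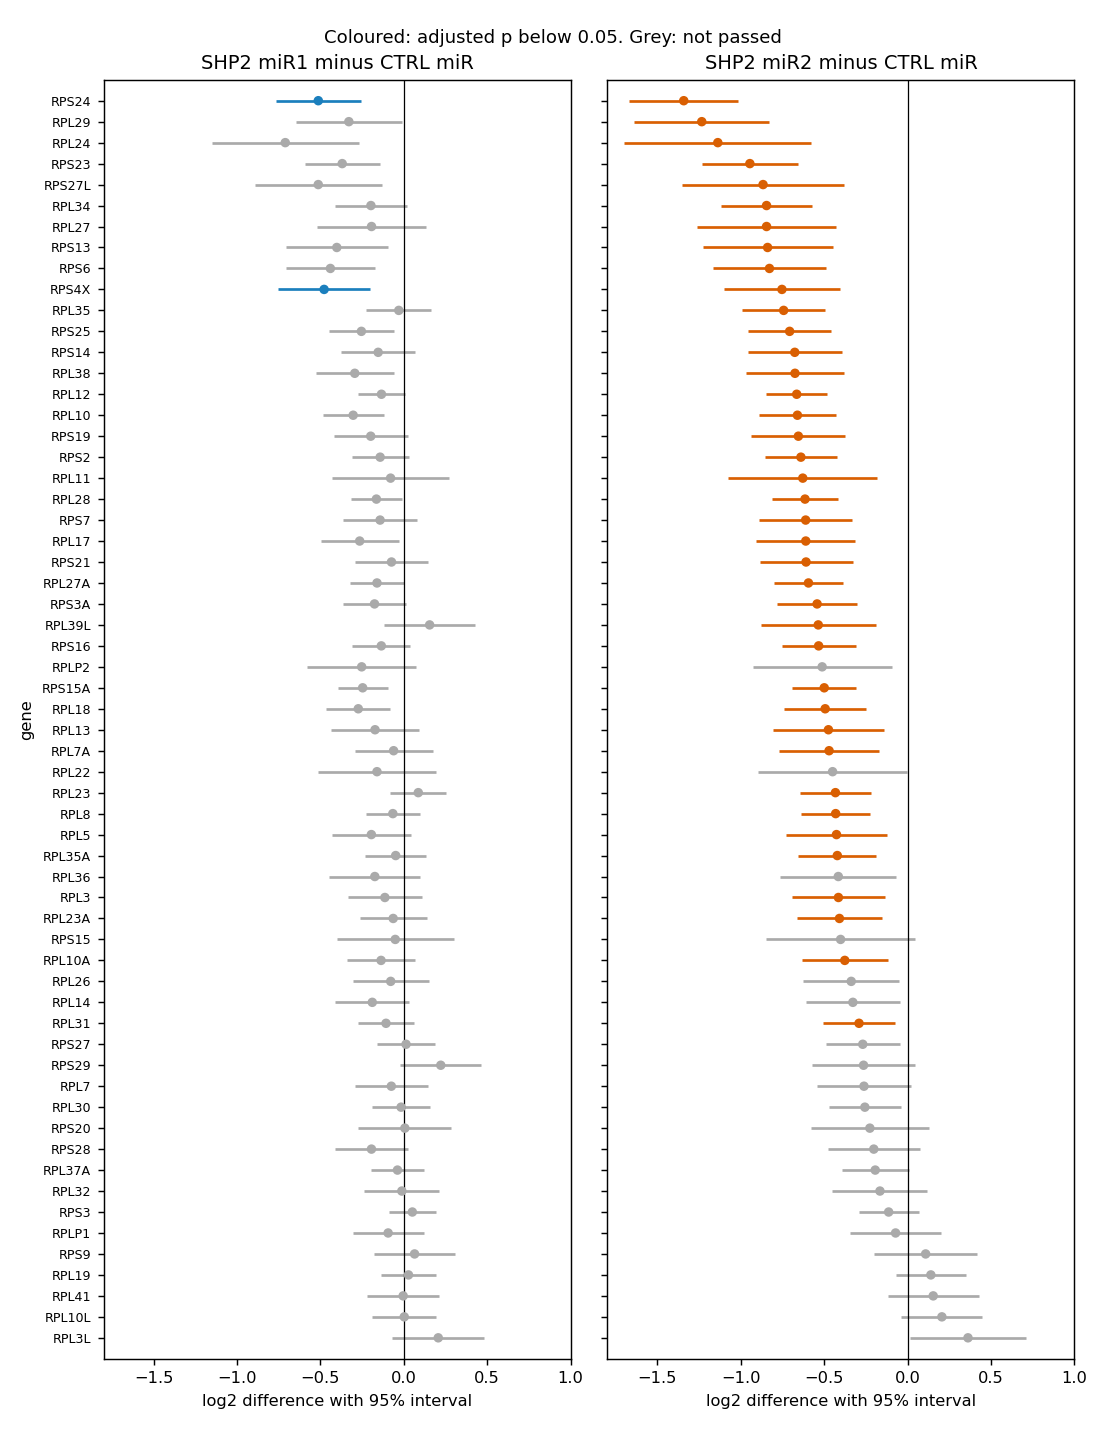
Log2 difference with its 95% interval for 60 ribosomal protein genes, SHP2 miR1 minus CTRL miR (left) and SHP2 miR2 minus CTRL miR (right), coloured where the limma adjusted p is below 0.05. RPS24 and RPS4X pass on the left and 39 genes pass on the right, all to the left of 0.

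Among small-subunit proteins, RPS24, which is mutated in some patients with Diamond-Blackfan anaemia, changed most. Its log2 signal was 8.10 to 8.39 with a median of 8.31 in SHP2 miR1 tumours and 7.34, 7.62 and 7.35 in SHP2 miR2 tumours, against 8.28 to 9.10 with a median of 8.92 in CTRL miR tumours. The SHP2 miR2 tumours lay below all others, and the SHP2 miR1 tumours overlapped the controls only through control tumour 5, at 8.28. Control tumour 2, at 8.43, was the next lowest control. RPS24 fell by 1.34 ± 0.16 (SE) on the log2 scale with SHP2 miR2 (limma adjusted p 1.01e-05) and by 0.51 ± 0.12 with SHP2 miR1 (adjusted p 0.0217). Against control tumours 2 and 5 alone, the change with SHP2 miR2 was -0.92 (adjusted p 0.000669) and that with SHP2 miR1 was -0.09 (adjusted p 0.943).

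RPS23, a protein of the decoding centre, was 8.77 to 9.03 with a median of 8.98 in SHP2 miR1 tumours and 8.34, 8.46 and 8.34 in SHP2 miR2 tumours, against 8.91 to 9.61 with a median of 9.46 in CTRL miR tumours. The 3 SHP2 miR2 tumours again lay lowest. It fell by 0.95 ± 0.14 (SE) with SHP2 miR2 (limma adjusted p 0.000102), and its change with SHP2 miR1 was -0.37 (adjusted p 0.0537). RPS23 is 1 of the members for which other settings made the SHP2 miR1 change pass, at an adjusted p of 0.0302 after quantile normalization.

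RPS6, the substrate of S6 kinases downstream of mTORC1, was 9.09 to 9.47 with a median of 9.41 in SHP2 miR1 tumours and 8.78, 9.16 and 8.89 in SHP2 miR2 tumours, against 9.27 to 10.21 with a median of 9.88 in CTRL miR tumours. The knockdown groups overlapped each other, and SHP2 miR1 overlapped the controls only through control tumour 5, at 9.27. Control tumour 2, at 9.48, lay just above the SHP2 miR1 range. It fell by 0.83 ± 0.16 (SE) with SHP2 miR2 (limma adjusted p 0.00132), and its change with SHP2 miR1 was -0.44 (adjusted p 0.0529). Against control tumours 2 and 5 alone the change with SHP2 miR2 was -0.43 (adjusted p 0.136).

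RPS4X, the X-linked form of small-subunit protein S4, was the other member that fell with both hairpins. It was 9.56 to 10.10 with a median of 9.89 in SHP2 miR1 tumours and 9.65, 9.61 and 9.51 in SHP2 miR2 tumours, against 9.87 to 10.81 with a median of 10.37 in CTRL miR tumours. The change was -0.75 ± 0.17 (SE) with SHP2 miR2 (limma adjusted p 0.00308) and -0.48 ± 0.13 with SHP2 miR1 (adjusted p 0.0416). With control tumours 2 and 5 alone these were -0.34 and -0.06, and neither passed (adjusted p 0.218 and 0.957).

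Not every small-subunit gene was lower. RPS3, which lines the entry of the mRNA channel, was 12.56 to 12.71 in SHP2 miR1 tumours and 12.45, 12.58 and 12.44 in SHP2 miR2 tumours, against 12.48 to 12.70 in CTRL miR tumours. All 3 groups overlapped, and the change with SHP2 miR2 was -0.11, with a 95% interval of -0.29 to 0.07. RPS9, another protein of the mRNA entry channel, changed by 0.11 with SHP2 miR2, with an interval of -0.20 to 0.42.

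Among large-subunit proteins, RPL29, also known as a heparin-binding protein, fell most. It was 10.56 to 11.11 with a median of 11.03 in SHP2 miR1 tumours and 10.11, 9.97 and 9.84 in SHP2 miR2 tumours, against 10.51 to 11.71 with a median of 11.29 in CTRL miR tumours. Only the SHP2 miR2 tumours lay apart. RPL29 fell by 1.23 ± 0.19 (SE) with SHP2 miR2 (limma adjusted p 0.00021), and its change with SHP2 miR1 was -0.33 (adjusted p 0.253). SHP2 miR1 tumours were 0.91 ± 0.19 above SHP2 miR2 tumours (adjusted p 0.00287), and the largest such difference among the members was this one.

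RPL24, which forms a bridge to the small subunit, changed less against control tumours 2 and 5 than against all controls. It was 9.08 to 9.36 with a median of 9.24 in SHP2 miR1 tumours and 8.96, 8.94 and 8.44 in SHP2 miR2 tumours, against 10.18, 9.25, 10.52, 10.14, 8.89 and 10.54 in CTRL miR tumours 1 to 6. Control tumours 2 and 5 lay within the range of the knockdown tumours, and the other controls lay about 1 log2 unit higher. RPL24 fell by 1.14 ± 0.27 (SE) with SHP2 miR2 against all controls (limma adjusted p 0.00461), and its change was -0.29 against control tumours 2 and 5 (adjusted p 0.349). With SHP2 miR1 the corresponding changes were -0.71 (adjusted p 0.058) and 0.14 (adjusted p 0.915).

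RPL35, near the exit of the peptide tunnel, and RPL12, at the base of the stalk, differed in SHP2 miR2 tumours with little spread among the controls. RPL35 was 10.27 to 10.54 in SHP2 miR1 tumours and 9.75, 9.99 and 9.45 in SHP2 miR2 tumours, against 10.27 to 10.66 in CTRL miR tumours. RPL12 was 11.56 to 11.78 in SHP2 miR1 tumours and 11.09, 11.20 and 11.17 in SHP2 miR2 tumours, against 11.70 to 11.91 in CTRL miR tumours. For both genes the SHP2 miR2 tumours lay below all others, while SHP2 miR1 and CTRL miR overlapped. With SHP2 miR2, RPL35 fell by 0.74 ± 0.12 (SE) and RPL12 by 0.67 ± 0.09 (limma adjusted p 0.000242 and 4.05e-05), and both also passed against control tumours 2 and 5 alone. With SHP2 miR1 the changes were -0.03 and -0.13 (adjusted p 0.925 and 0.315).

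The stalk proteins RPLP1 and RPLP2, which help recruit translation factors to the ribosome, did not pass with either hairpin. RPLP1 was 9.44 to 9.87 in SHP2 miR1 tumours and 9.70, 9.56 and 9.85 in SHP2 miR2 tumours, against 9.54 to 10.01 in CTRL miR tumours. Its change with SHP2 miR2 was -0.07, with a 95% interval of -0.34 to 0.20. RPLP2 changed by -0.51 with SHP2 miR2 (interval -0.93 to -0.10, limma adjusted p 0.0571) and by -0.25 with SHP2 miR1 (adjusted p 0.434).

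RPL5 and RPL11, which bind 5S ribosomal RNA and can inhibit MDM2 when ribosome assembly is disturbed, fell with SHP2 miR2 in the deposited values but did not pass after quantile normalization. RPL5 was 11.61 to 11.99 in SHP2 miR1 tumours and 11.77, 11.74 and 11.33 in SHP2 miR2 tumours, against 11.71 to 12.31 in CTRL miR tumours. RPL11 was 8.57 to 9.24 in SHP2 miR1 tumours and 8.68, 8.34 and 7.97 in SHP2 miR2 tumours, against 8.29 to 9.47 in CTRL miR tumours. For both genes all groups overlapped. The changes with SHP2 miR2 were -0.43 ± 0.15 and -0.63 ± 0.21 (SE; limma adjusted p 0.0331 and 0.0336), and after quantile normalization they were -0.24 and -0.44 (adjusted p 0.179 and 0.123).

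RPL19 and RPL23 both lie at 17q12, near ERBB2 (RPL19 at chr17:39200283-39204732 and RPL23 at chr17:38847860-38853721, GRCh38). RPL19, which reaches across the subunit interface, was 11.25 to 11.50 in SHP2 miR1 tumours and 11.46, 11.38 and 11.51 in SHP2 miR2 tumours, against 11.14 to 11.52 in CTRL miR tumours. RPL23, a protein of the interface, was 10.47 to 10.78 in SHP2 miR1 tumours and 9.99, 10.28 and 10.03 in SHP2 miR2 tumours, against 10.37 to 10.63 in CTRL miR tumours. The groups overlapped for RPL19, while for RPL23 the SHP2 miR2 tumours lay below all others. RPL23 fell by 0.43 ± 0.10 (SE) with SHP2 miR2 (limma adjusted p 0.00462), and the change of RPL19 was 0.14 (adjusted p 0.287) in the deposited values and 0.29 (adjusted p 0.041) after quantile normalization. The difference between these genes was not tested.

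**Figure D4:**
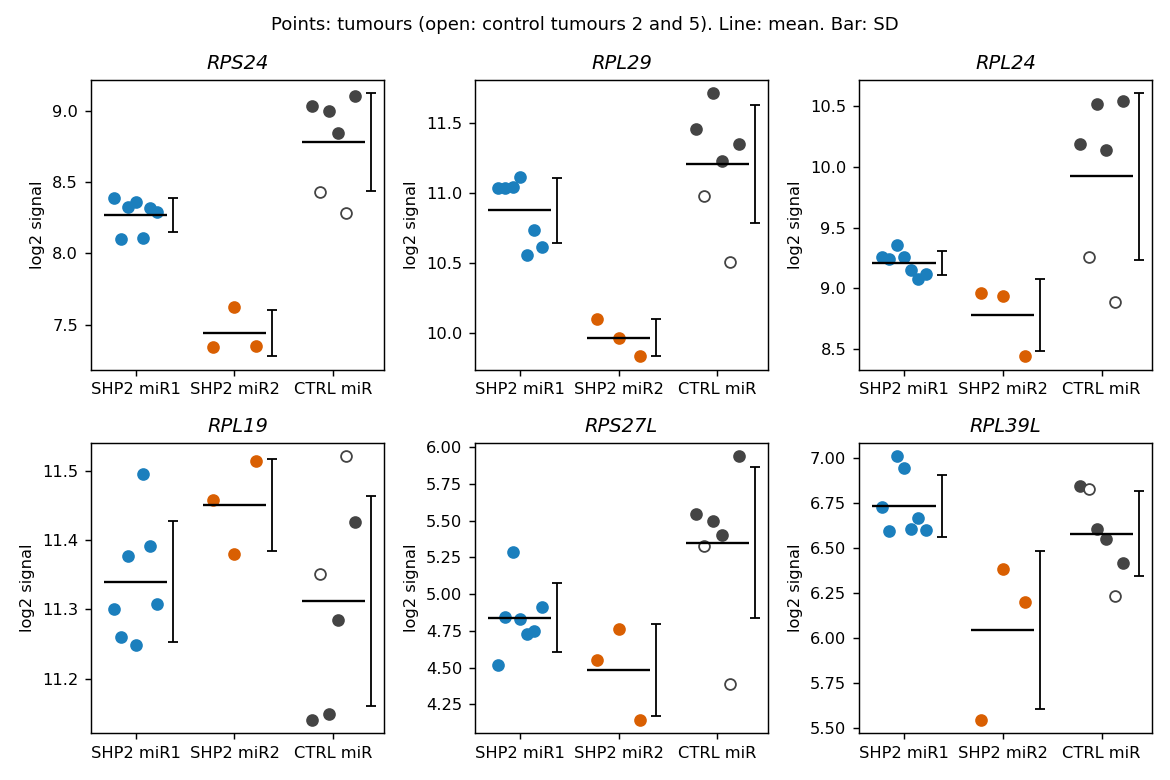
Log2 signal of 6 ribosomal protein genes in each tumour (points), with the group mean (line) and SD (bar) for SHP2 miR1, SHP2 miR2 and CTRL miR, and open points for control tumours 2 and 5. RPS24 and RPL29 have the 3 SHP2 miR2 tumours below all others, RPL24 has control tumours 2 and 5 about 1 log2 unit below the other controls, and RPL19 has overlapping groups.

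RPL41, the smallest ribosomal protein, was 11.07 to 11.55 in SHP2 miR1 tumours and 11.57, 11.58 and 11.38 in SHP2 miR2 tumours, against 11.14 to 11.64 in CTRL miR tumours. Its change with SHP2 miR2 was 0.15, with a 95% interval of -0.12 to 0.43, while another, dimmer cluster of RPL41 changed by -0.51. RPS28 and RPL5 also had clusters that differed in size, from -0.20 to -0.83 for RPS28 and from -0.43 to -0.89 for RPL5. Of the 60 members, 21 had more than 1 cluster, and in 17 at least 2 of these were annotated to that gene alone. Ribosomal protein genes have many processed pseudogenes with nearly the same sequence, so a cluster can measure several copies at once, and values of such members are uncertain.

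Of the 4 paralogues, 2 fell with SHP2 miR2. RPS27L, a paralogue of RPS27 and a target of p53, was 4.52 to 5.29 in SHP2 miR1 tumours and 4.55, 4.76 and 4.14 in SHP2 miR2 tumours, against 5.54, 5.33, 5.50, 5.41, 4.39 and 5.94 in CTRL miR tumours 1 to 6. Control tumour 5 lay with the knockdown tumours. RPS27L fell by 0.87 ± 0.23 (SE) with SHP2 miR2 (limma adjusted p 0.00989), and its change against control tumours 2 and 5 was -0.37 (adjusted p 0.422). Its partner RPS27 changed by -0.27 with SHP2 miR2 (adjusted p 0.0618).

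RPL39L, a paralogue of RPL39 abundant in testis, was 6.59 to 7.01 in SHP2 miR1 tumours and 5.55, 6.38 and 6.20 in SHP2 miR2 tumours, against 6.23 to 6.84 in CTRL miR tumours. SHP2 miR2 tumour 1 was the lowest, and the SHP2 miR1 tumours lay above all 3 SHP2 miR2 tumours. RPL39L fell by 0.54 ± 0.16 (SE) with SHP2 miR2 (limma adjusted p 0.0214), and without SHP2 miR2 tumours 1 and 3 its change was -0.20 (adjusted p 0.726). RPL3L, the muscle paralogue, and RPL10L, the testis paralogue, did not pass with either hairpin. RPL3L changed by 0.36 with SHP2 miR2 (interval 0.01 to 0.71, adjusted p 0.102) and RPL10L by 0.21 (interval -0.04 to 0.45).

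The members were among the brightest genes on the array. By mean log2 signal, 44 of 60 were in the top 10% of all genes, and their means ran from 4.42 to 12.61 with a median of 9.26, against a median of 5.81 over all genes. RPL10L and RPS27L were the only members below that median. The median SD of a member was 0.15 over SHP2 miR1 tumours and 0.13 over SHP2 miR2 tumours, against 0.22 over CTRL miR tumours. Over all genes these medians were 0.16, 0.18 and 0.20.

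Other genes of the translation machinery were counted beside the members. Of 17 other genes known for TOP messenger RNAs, most of them translation factors, 12 fell with SHP2 miR2 and 1, EIF3L, fell with SHP2 miR1. Over all genes 18.2% fell with SHP2 miR2 and 3.38% with SHP2 miR1, and the counts of the lists that follow stand beside the same shares. The 17 also hold HNRNPA1, a splicing factor, TPT1, NAP1L1, a histone chaperone that is also among the chaperones counted below, and BTF3 and NACA, the nascent polypeptide-associated complex. EIF3L, a subunit of initiation factor eIF3, ran from 8.39 to 8.72 in SHP2 miR1 tumours and from 7.80 to 8.05 in SHP2 miR2 tumours, against 8.59 to 9.22 in CTRL miR tumours. It fell by 1.06 ± 0.13 (SE) with SHP2 miR2 and by 0.41 ± 0.10 with SHP2 miR1 (limma adjusted p 1.75e-05 and 0.0238). EIF4B, a cofactor of the helicase EIF4A, fell by 0.66 with SHP2 miR2 (adjusted p 0.00028). The median change of the 17 was -0.46 with SHP2 miR2 and -0.14 with SHP2 miR1, and -0.30 and 0.03 against control tumours 2 and 5.

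Ribosomal proteins whose symbols fall outside the rule moved the same way, with 5 of 5 measured lower after SHP2 miR2. RPL22L1, a paralogue of RPL22, fell by 0.75 ± 0.15 (SE) and RPL7L1, a paralogue of RPL7, by 0.69 ± 0.15 (limma adjusted p 0.00126 and 0.0029). Of 14 genes of mTORC1 and TOP mRNA control, 5 fell with SHP2 miR2. EIF4EBP1, a brake on translation that mTORC1 releases, ran from 7.12 to 7.62 in SHP2 miR1 tumours and from 6.49 to 6.56 in SHP2 miR2 tumours, against 7.01 to 7.62 in CTRL miR tumours. It fell by 0.86 ± 0.14 with SHP2 miR2 (adjusted p 0.000216), and its change with SHP2 miR1 was 0.01 (adjusted p 0.97). RHEB, the GTPase that activates mTORC1, fell by 0.49 ± 0.14 with SHP2 miR2 (adjusted p 0.0116).

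Of 12 chaperones and import receptors of ribosomal proteins, 11 fell with SHP2 miR2 and 1, BCCIP, also with SHP2 miR1. BCCIP, whose yeast homologue is a chaperone of Rpl23, fell by 1.04 ± 0.24 (SE) with SHP2 miR2 (limma adjusted p 0.00415), and the import receptor IPO5 by 0.83 ± 0.16 (adjusted p 0.00122). Of 14 genes of ribosomal RNA transcription by RNA polymerase I, 9 fell with SHP2 miR2. The polymerase subunits POLR1B and POLR1E fell by 1.12 ± 0.15 and 1.25 ± 0.20 (adjusted p 4.66e-05 and 0.000214). Of 29 measured small nucleolar RNAs encoded in introns of ribosomal protein genes, 18 fell with SHP2 miR2, among them SNORA6 (-0.71) and SNORD21 (-1.20). The array sets were told apart by small noncoding RNAs, and all SHP2 miR2 tumours are in set B. The mean log2 signal of these 29 ran from 6.98 to 7.09 in the SHP2 miR1 tumours of set B and from 6.49 to 6.78 in the SHP2 miR2 tumours, against 6.94 to 7.34 in the CTRL miR tumours of set B. In set A it ran from 7.20 to 7.34 in SHP2 miR1 tumours, against 7.18 to 7.49 in CTRL miR tumours. Within set B 15 of the 29 fell with SHP2 miR2, and with the set as a block 14 did.

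Mitochondrial ribosomal protein genes, which serve translation inside mitochondria, were the closest comparison. With SHP2 miR2, 46 of 73 fell, with a median of -0.43, beside 39 of 60 and -0.48 for the cytosolic members. With SHP2 miR1, 1 of 73 fell, with a median of -0.02, beside 2 of 60 and -0.14. No test of a difference between the lists was made.

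Within array set B, where 9.98% of all genes fell with SHP2 miR2, the counts of these lists were 9 of 17 for the TOP genes, 3 of 5 for the ribosomal proteins outside the rule, 1 of 14 for mTORC1, 6 of 12 for the chaperones, 6 of 14 for RNA polymerase I and 32 of 73 for the mitochondrial genes. Without SHP2 miR2 tumours 1 and 3, where 0.963% of all genes fell, they were 1, 1, 1, 0, 0 and 2 in the same order, and 0 for the small nucleolar RNAs.

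**Figure D5:**
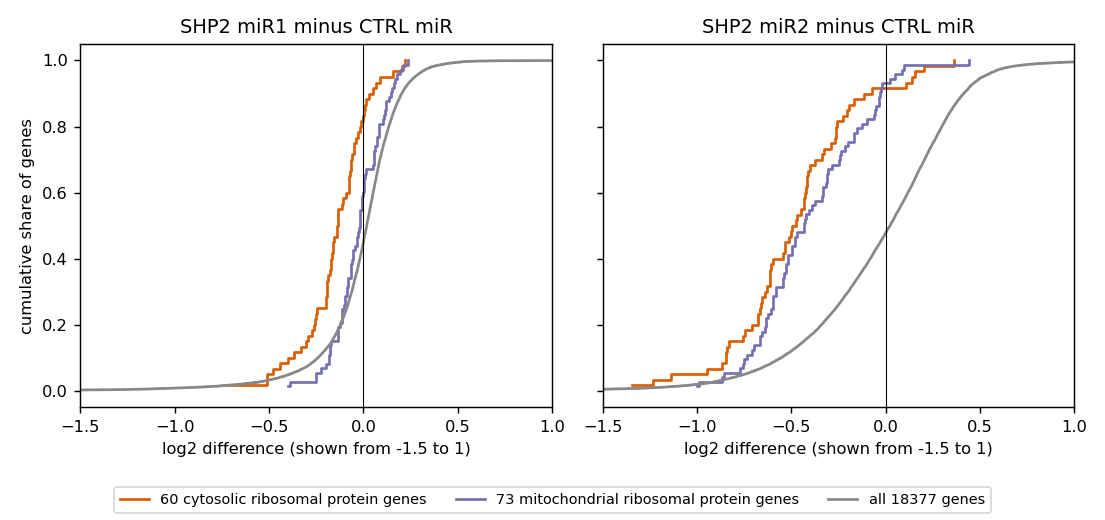
Cumulative share of genes against log2 difference for 60 cytosolic ribosomal protein genes, 73 mitochondrial ribosomal protein genes and all 18377 genes, SHP2 miR1 minus CTRL miR (left) and SHP2 miR2 minus CTRL miR (right). The curves of both lists lie left of that of all genes for SHP2 miR2 (medians -0.48 and -0.43, against 0.02), while for SHP2 miR1 the cytosolic curve is further left (median -0.14) than the mitochondrial one (-0.02).

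Some markers of mouse host cells rose in the same SHP2 miR2 tumours. The mean log2 signal of 10 macrophage and myeloid markers ran from 4.38 to 4.62 in SHP2 miR1 tumours and from 4.57 to 4.96 in SHP2 miR2 tumours, against 4.21 to 4.60 in CTRL miR tumours, and 6 of the 10 rose with SHP2 miR2. The mean of 10 fibroblast and matrix markers ran from 5.21 to 5.44 in SHP2 miR1 tumours and from 5.42 to 5.58 in SHP2 miR2 tumours, against 5.01 to 5.40 in CTRL miR tumours, where 6 rose and 1 fell with SHP2 miR2. Of 8 endothelial markers 1 rose and of 10 skeletal muscle markers 2 rose with SHP2 miR2, where 11.8% of all genes rose. Within array set B, where 3.9% of all genes rose, 2 myeloid, 4 fibroblast, 0 endothelial and 0 muscle markers rose. Over all 16 arrays, the median changes of these lists with SHP2 miR2 were 0.46, 0.40, 0.22 and 0.55 in the same order. Within set B these medians were 0.31, 0.32, 0.15 and 0.47. Without SHP2 miR2 tumours 1 and 3, which leaves 1 SHP2 miR2 tumour, they were 0.19, 0.35, 0.06 and 0.10. The mean of 10 BT474 markers ran from 9.75 to 10.02 in SHP2 miR1 tumours and from 9.72 to 9.99 in SHP2 miR2 tumours, against 9.27 to 9.90 in CTRL miR tumours, and 3 of the 10 rose with SHP2 miR2. Their part in the lower ribosomal protein signals was not tested. In bulk tumour RNA, fewer cells of a type and less RNA per cell cannot be told apart.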

How the data were processed

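BT474 tumours were dissected after 30 days of doxycycline, RNA was extracted with TRIZOL and 100 ng was labelled, per the labels, and hybridised to the HuGene-1_0-st-v1 array. The authors deposited 1 log2 value per transcript cluster and array (28869 clusters, 16 arrays), the log2 scale being inferred from the values. R 2.10 and oligo 1.8 are named in the submitters' processing notes, and for background correction and normalization the sources used here give no method. Symbols come from GEO's platform annotation. Of the clusters, 19310 had 1 symbol, 1752 several and 7807 none. Each gene was represented by its single-symbol cluster with the highest mean, which left 18377 genes, with no filter on low values.

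A linear model of the 3 groups was fitted with limma 3.58.1 in R 4.3.3 (lmFit, eBayes, 13 residual degrees of freedom), with Benjamini-Hochberg adjustment over all genes in each of 4 contrasts, and a gene was called at an adjusted p below 0.05. Verbs such as rose and fell are kept for calls. The fit was tested on simulated data. Intervals are at the 95% level. Arrays have no depth, and their number limits the precision.

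Earlier results of these data were known when the members, the gene lists, the alternatives and the naming rule were chosen. Named genes are PTPN11, a panel of paralogues, stalk, 5S-binding, RPS6 and 17q12 members, the 5 largest falls for both hairpins (RPS24, RPL24, RPL29, RPS27L and RPS23), the 3 largest differences between hairpins (RPL29, RPS24 and RPL35), and up to 2 members of each list. IRS4, RPS4X, RPL12, RPS3, RPS9, RPL41, RPS27 and the 8 members that passed against control tumours 2 and 5 were named after their values were seen. The array sets were read from expression profiles. Alternatives were quantile normalization, median centring, cyclic loess, a filter on dim genes, other choices of cluster, a trend with robust prior, array weights, the replicate number or array set as a block, each set alone, control tumours 2 and 5 alone, only the groups compared, and leaving out each tumour. Leaving out SHP2 miR2 tumours 1 and 3 was added after seeing the data. Promoters are from RefSeq. Plots were drawn with matplotlib 3.10.9.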

Additional observations from a re-analysis of the deposited data

Results flagged for a closer look

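In 82 groups of 4 to 10 tumours tested with Dixon's criterion at the 95% level, 4 had a tumour far from the others, about as many as that level gives by chance. RPS23 was 8.77 in SHP2 miR1 tumour 1, where the next tumour was 8.94. POLR1B was 7.03 in SHP2 miR1 tumour 2, where the next was 7.34. RHEB was 7.82 in control tumour 5, where the next was 8.27. VWF, an endothelial marker, was 4.86 in control tumour 5, where the next was 4.59.

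For 22 genes of the naming rule the effects of the hairpins differed by the contrast of SHP2 miR1 with SHP2 miR2 itself (limma adjusted p below 0.05). Among PTPN11 and the members, the differences, SHP2 miR1 minus SHP2 miR2, were 0.91 for RPL29, 0.83 for RPS24, 0.71 for RPL35, 0.69 for RPL39L, 0.58 for RPS23, 0.52 for RPL23 and 0.46 for PTPN11. Among genes of the translation machinery they were 0.95 for POLR1B, 0.87 for EIF4EBP1, 0.87 for SNORA65, 0.78 for POLR1E, 0.65 for RPL22L1, 0.64 for EIF3L, 0.60 for SNORD21, 0.47 for IPO5 and 0.44 for EIF4B. Among markers of host cells and of BT474 they were -0.78 for GATA3, -0.54 for PTPRC, -0.53 for ESR1, -0.41 for LYZ, -0.39 for COL1A2 and 0.43 for COL5A2. After quantile normalization 16 of the 22 passed, and those that did not were RPS23 (0.36, adjusted p 0.059), PTPN11 (0.31, adjusted p 0.075), EIF4B (0.26), IPO5 (0.25), SNORA65 (0.66) and SNORD21 (0.51). Without SHP2 miR2 tumours 1 and 3, which leaves 1 SHP2 miR2 tumour, 2 of the 22 passed, EIF4EBP1 and GATA3.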

How the results depend on the processing

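Members called numbered 28 (both hairpins), 2 (SHP2 miR1), 39 (SHP2 miR2) and 26 (SHP2 miR1 against SHP2 miR2), with medians of -0.32, -0.14, -0.48 and 0.35. Shares of all genes called, in either direction, stand in brackets and were 18.6%, 4.76%, 30% and 22.5% here. Array weights gave 44 (38.3%) and 17 (18.3%) for both hairpins and SHP2 miR1. Set B alone gave 5 (1.67%) for both hairpins, 0 (0.00544%) for SHP2 miR1 and 7 (5.29%) between the hairpins, and set A alone 0 (0.0544%) for SHP2 miR1. Control tumours 2 and 5 alone gave 0 (0.751%), 0 (0.136%) and 8 (4.37%) for both, SHP2 miR1 and SHP2 miR2 against controls, with medians of -0.14, 0.042 and -0.29. Without SHP2 miR2 tumours 1 and 3 there were 11 (4.3%), 1 (4.04%), 5 (2.45%) and 0 (1.65%), an alternative chosen after seeing the data. For SHP2 miR1, quantile normalization gave 7 (4.25%), cyclic loess 8 (4.77%), the set as a block 8 (6.67%), a trend with robust prior 6 (4.77%), median centring 1 (4.97%) and only the groups compared 1 (4.04%). The median with SHP2 miR2 was -0.33 after quantile normalization and -0.33 after cyclic loess. Between the hairpins both gave 10 calls (15.8% and 12.3%), with medians of 0.18 and 0.15. Leaving out each tumour in turn gave 25 to 38 calls for both hairpins (11.4% to 31%), 0 to 13 for SHP2 miR1 (1.27% to 10.4%), 29 to 44 for SHP2 miR2 (13% to 42.1%) and 14 to 30 between the hairpins (7.13% to 32.2%), with the lowest of these without SHP2 miR2 tumour 1 (15) or 3 (14). Medians then ran from -0.37 to -0.28, -0.17 to -0.11, -0.53 to -0.44 and 0.31 to 0.38, and the change of PTPN11 for both hairpins from -1.74 to -1.66. The cause of these moves was not tested. No result changed sign while called in any setting. Medians are not calls, and the median with SHP2 miR1 did change sign, from -0.14 to 0.042 against control tumours 2 and 5 alone.

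Deviations of same-numbered SHP2 miR1 and CTRL miR tumours correlated at 0.21 to 0.37 in 5 of 6 pairs, each within 1 array set, and at -0.30 for number 4, which lies in different sets. Same-numbered pairs with SHP2 miR2 tumours correlated at -0.42 to 0.022. SHP2 miR1 and CTRL miR tumours of different number within 1 array set correlated at 0.079 to 0.48, a range that holds the same-numbered values within a set. Since not every same-numbered pair deviated together either, the number was not taken to pair the tumours. With the replicate block, calls were 30 (21.1%), 2 (4.05%), 39 (39.5%) and 27 (36.9%).

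Array signal limits dim members, and 2, RPL10L and RPS27L, lay below the median of all genes.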
